A study of Mus musculus with 6 samples.

Results

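Chemokines and chemokine receptors are described here in the retina of rd10 mice injected with interleukin-27 (IL-27) or saline, over 9 genes of the 32285 genes listed in the count matrices. The members were taken by symbol: the CC ligands Ccl2, Ccl3, Ccl4 and Ccl5, the CXC ligands Cxcl10 and Cxcl16, the CX3C ligand Cx3cl1 and the receptors Cx3cr1 and Cxcr4. Each of the 9 symbols had 1 row in the matrices. Single-nucleus RNA sequencing was run on whole retinas of the strain B6.CXB1-Pde6b-rd10/J, in which a mutation of the rod phosphodiesterase gene Pde6b makes rods and then cones degenerate. All mice carried this mutation, so no retina without degeneration stands beside them. Retinas received recombinant IL-27 (20 ng in the eye) or saline by intravitreal injection at postnatal day 18 and were collected and frozen at postnatal day 20. Saline was given to 3 libraries (replicates 1, 2 and 6) and IL-27 to 3 others (replicates 4, 5 and 10). The sources used here do not say whether a library is 1 retina, 1 animal or a pool, so p-values measure the spread between libraries, which may be partly technical.

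Chemokines are small secreted proteins that bind receptors coupled to G proteins and direct the movement of leukocytes, and they are named by the spacing of their first cysteines. Ccl2 binds Ccr2 and draws monocytes, Ccl3, Ccl4 and Ccl5 draw monocytes and lymphocytes, and Cxcl10 binds Cxcr3 and is a classic target gene of interferon. Cxcl16 and Cx3cl1 differ from the rest in that they are made as transmembrane proteins and released by the proteases Adam10 and Adam17. In the retina Cx3cl1 is known as the signal of neurons to microglia, whose receptor for it is Cx3cr1. Cxcr4 is the receptor of Cxcl12. IL-27 is a cytokine of lymphocytes and myeloid cells, and microglia are known sources of chemokines in degenerating retina.

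The libraries held 8968 to 9965 barcodes and 36678332 to 48260748 UMIs (unique molecular identifiers, each counting 1 captured RNA molecule). After filters and removal of 4016 predicted doublets, 52189 nuclei remained, with a median of 2782 to 3787 UMIs per nucleus by library. Pairs of libraries shared 18 to 30 cell barcodes. The nuclei formed 34 clusters, most of which could be named from marker genes as rod, cone, bipolar (BC), amacrine (AC), horizontal (HC), ganglion (RGC), Muller glia, microglia, astrocyte, endothelial, pericyte or ciliary epithelium-like, and 7 clusters with 5485 nuclei stayed unnamed. Of the fixed markers, 10 of 11 marked the microglial cluster and 10 of 10 the Muller glia cluster. Markers were also counted outside their own cell type, with Muller glia markers summing to 1432 to 1882 CPM in rods and 3502 to 4890 CPM in microglia beside 6137 to 7458 CPM in Muller glia (CPM, the UMIs of a gene for every 1000000 UMIs in the nuclei of a cell type summed over a library). Apoe, the highest gene of that list in microglia and rods, is also a gene of microglia. A ciliary epithelium-like cluster of 683 nuclei came mostly from saline libraries and is outside the Muller glia sums. Of 680 of its nuclei kept for sums, saline replicates 1, 2 and 6 gave 231, 220 and 108. IL-27 replicates 4, 5 and 10 gave 12, 6 and 103, so IL-27 replicate 10 was close to saline replicate 6.

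The members had separate places in the tissue. Levels are given as CPM, with the mean and standard deviation (SD) over the 6 libraries. Microglia had the highest mean of 8 members. For Cx3cr1, Ccl4 and Cxcl16 every microglial library lay above every library of the next cell type, while for Ccl2, Ccl3, Ccl5, Cxcl10 and Cxcr4 the ranges overlapped with the next cell type. Cx3cl1 was the exception, with its highest levels in RGC and AC.

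**Figure D1:**
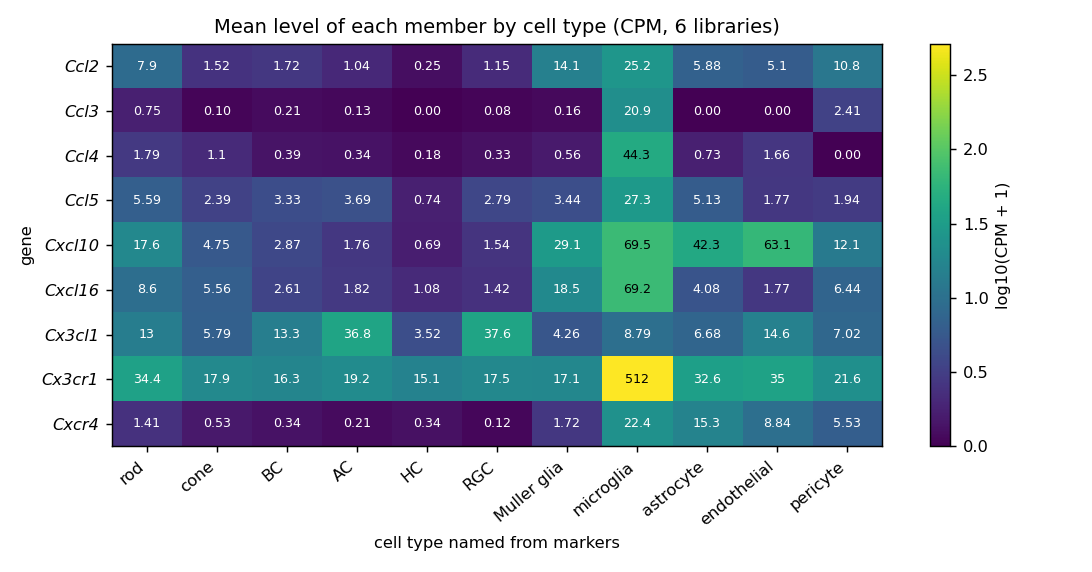
Mean CPM of the 9 members (rows) in the 11 named cell types (columns), over 6 libraries, with colour on a log10(CPM + 1) scale and the CPM printed in each cell. Cx3cr1 stands at 512 in microglia and Cx3cl1 is highest in RGC and AC.

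Cx3cr1, the fractalkine receptor, was highest in microglia, where every library lay above every library of the other cell types. Its level in microglia was 477, 606 and 487 CPM in saline replicates 1, 2 and 6 and 478, 469 and 556 CPM in IL-27 replicates 4, 5 and 10. The groups overlapped, and the mean was 512 ± 55.8 CPM (SD, n = 6). A UMI of Cx3cr1 was present in 794 of 1546 microglial nuclei, or 51.4% (95% exact Clopper-Pearson interval 48.8 to 53.9; all such intervals cover counting error only). The other 10 cell types had means of 15.1 to 35.0 CPM. A UMI was found in 4.63% of rod nuclei and 11.4% of AC nuclei, at median depths of 1285 and 6124 UMIs against 2114.5 in microglia. When each nucleus was thinned to 1000 UMIs these shares became 3.28% in rods, 2.01% in AC and 33.4% in microglia. RNA of broken cells in the droplets adds counts of this kind to cell types that do not use a gene, and its part was not tested. In the GENCODE annotation the Cx3cr1 gene (chr9:119901616-120069879, minus strand, GRCm38) spans several other genes, among them Gorasp1, Csrnp1 and Xirp1 on the same strand, so counts outside microglia are uncertain.

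Cx3cl1, which encodes fractalkine, was a gene of inner retinal neurons. RGC libraries had 39.2, 43.6 and 39.3 CPM with saline and 36.4, 39.9 and 27.5 CPM with IL-27. AC libraries had 34.6, 36.6 and 39.1 CPM with saline and 33.8, 35.4 and 41.5 CPM with IL-27. These ranges overlapped each other, with means of 37.7 ± 5.50 and 36.8 ± 2.94 CPM (SD, n = 6), and every AC library lay above every library of the cell types that followed. Endothelial nuclei, BC and rods came next in the order with means of 14.6, 13.3 and 12.99 CPM, which did not differ beyond their spread. A UMI was seen in 30.5% of RGC nuclei and 21.0% of AC nuclei, against 1.97% of Muller glia nuclei. After thinning to 1000 UMIs the shares were 4.10%, 3.72% and 0.317%. The positive neurons carried few molecules each: 80.5% of positive RGC nuclei held 1 UMI, and no RGC or AC nucleus held more than 4.

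Within the AC clusters the level of Cx3cl1 varied. It was 43.6 CPM in a cluster led by Gm28494, Mei1 and Fgf10 and 42.2 CPM in the cluster that carried Chat and Slc5a7, the genes of acetylcholine synthesis and choline uptake. It was 26.9 CPM in the cluster led by Vip and 10.63 CPM in the small cluster with Cartpt, which held 191 nuclei. Library ranges within these clusters were wide (32.9 to 49.8 CPM for the Chat cluster and 18.2 to 41.0 CPM for the Vip cluster), so their order is a description. Among the BC clusters the values went from 4.01 CPM in a cluster led by Grik1 to 23.6 CPM in a cluster led by Igfn1. HC nuclei, the deepest with a median of 9898 UMIs, had 3.52 CPM.

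Cxcl16, the transmembrane ligand of Cxcr6, had an order of levels in which microglia and Muller glia were each separate from the next cell type, while rods, next in the order, overlapped those that followed. In microglia the libraries had 63.3, 73.9 and 69.0 CPM with saline and 58.0, 83.8 and 67.1 CPM with IL-27. In Muller glia they had 15.2, 19.9 and 20.6 CPM with saline and 15.9, 17.8 and 21.4 CPM with IL-27. No microglial library came near the Muller glia values, whose mean was 18.5 ± 2.59 CPM (SD, n = 6), and the lowest Muller library lay above the highest rod library (rod mean 8.60 CPM). A UMI was present in 12.7% of microglial and 8.15% of Muller glia nuclei, against 1.37% of RGC nuclei, which were deeper. In Muller glia Cxcl16 was spread thinly over the population: 368 of 388 positive nuclei held 1 UMI and none held more than 2. The 5′ end of the Cxcl16 gene (chr11:70453983-70459984, minus strand, GRCm38) overlaps Zmynd15 on the opposite strand by 552 bases. Zmynd15 was seen in 28.1% of microglial nuclei with Cxcl16 and 6.30% of those without, but in 5.67% of Muller glia nuclei with Cxcl16 and 5.67% of those without, so the counts of Cxcl16 in microglia are uncertain to that extent.

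Cxcl10 and Ccl2 behaved differently in Muller glia, where few nuclei held most of the molecules. Cxcl10 had 636 UMIs in 186 of 4759 Muller glia nuclei, and 50 nuclei with 5 or more UMIs held 67.5% of them, up to 25 in a nucleus. Ccl2 had 308 UMIs in 98 nuclei, and 24 nuclei with 5 or more held 66.9% of them, up to 22 in a nucleus. Cxcl16 in the same nuclei had more positive nuclei than either and none with 5 UMIs. The nuclei rich in Cxcl10 came from every library: 7, 13 and 5 from saline and 1, 12 and 12 from IL-27. Median depth was close, at 4848.5 UMIs in nuclei with Cxcl10 and 4416 UMIs in those without. The Cxcl10 gene (chr5:92346638-92348889, minus strand, GRCm38) lies wholly inside Art3 on the opposite strand. Art3 was not compared between nuclei with and without Cxcl10, so counts of Cxcl10 in all cell types are uncertain to that extent.

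**Figure D2:**
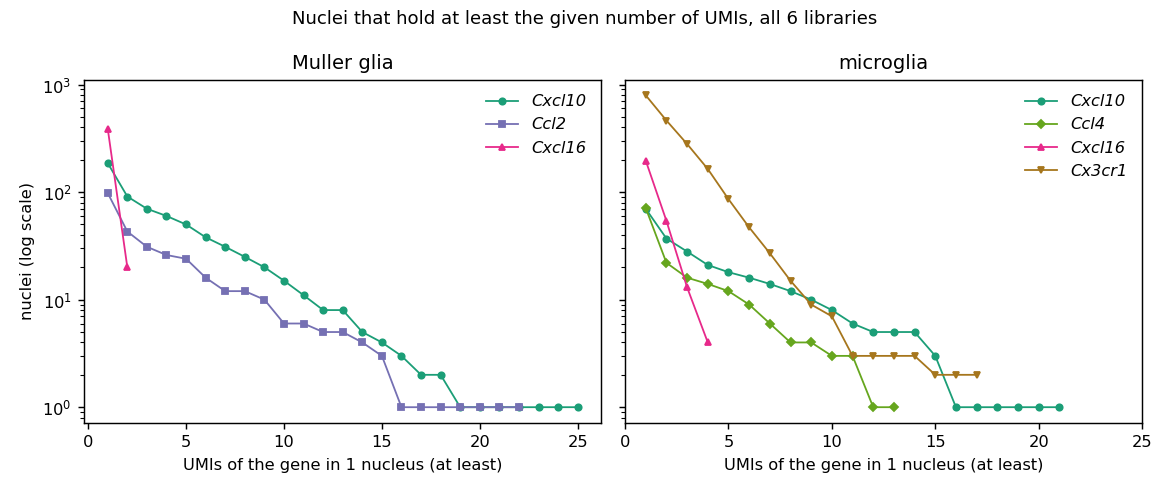
Number of nuclei (log axis) that held at least the number of UMIs on the x axis, for 3 members in Muller glia (left) and 4 in microglia (right), 6 libraries together. In Muller glia Cxcl16 ended at 2 UMIs per nucleus while Cxcl10 reached 25 and Ccl2 reached 22.

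The same Muller glia nuclei often carried both ligands. Ccl2 and Cxcl10 were found together in 44 nuclei, which is 44.9% of the nuclei with Ccl2 and 23.7% of the nuclei with Cxcl10. Cxcl10 was found in 3.05% of the nuclei without Ccl2. Saline replicates 1, 2 and 6 had 7, 7 and 3 joint nuclei, IL-27 replicates 5 and 10 had 13 and 14, and IL-27 replicate 4 had 0. By contrast Cxcl16 was in 13.3% of nuclei with Ccl2 and 8.05% of those without.

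Muller glia nuclei with Cxcl10 carried interferon-response genes. Rsad2, which encodes the antiviral protein viperin, had 1332 CPM in nuclei with Cxcl10 and 91.0 CPM in the rest. The guanylate-binding protein genes Gbp2 and Gbp5 had 346 against 20.9 CPM and 387 against 21.6 CPM. The sum of 16 interferon-response genes was 5233 CPM against 1328 CPM, and in the 50 nuclei with 5 or more Cxcl10 UMIs it was 8884 CPM. Within that list Irf1, a transcription factor induced by interferon gamma, had 393 CPM in those 50 nuclei and 40.4 CPM in the others, while Irf9 had 97.3 against 81.2 CPM. Nuclei with Ccl2 had a like sum, 5205 against 1408 CPM. Microglial markers summed to 197 CPM in nuclei with Cxcl10 and 217 CPM in those without, and Muller glia markers to 5850 and 6661 CPM. Rod markers (456 against 342 CPM) and T or NK cell markers (26.6 against 8.86 CPM) were higher in the nuclei with Cxcl10, and their part was not tested. These genes were found by comparing nuclei of the same clusters, so they describe the nuclei and carry no test.

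The promoters of Cxcl10, Gbp2 and Rsad2 are shown because these genes are textbook targets of the interferon-stimulated response element (ISRE). A pair of GAAA repeats with 2 bases of any kind between them was searched on both strands in the 250 bases before the RefSeq start of each gene, and the matching bases stand in capitals. Sequences are from RefSeq on GRCm38.p6, read 5′ to 3′ along the strand of the gene, and entries were found for 5 of 9 members (Ccl3, Cxcl10, Cx3cl1, Cx3cr1 and Cxcr4). RefSeq and GENCODE starts differ, so the Cx3cr1 window lies inside the GENCODE span of the gene given above and the Cx3cl1 window runs past the GENCODE start. The Cxcl10 window lies at chr5:92348890-92349139 (minus strand), the Gbp2 window at chr3:142620413-142620662 (plus strand) and the Rsad2 window at chr12:26456453-26456702 (minus strand).
Cxcl10: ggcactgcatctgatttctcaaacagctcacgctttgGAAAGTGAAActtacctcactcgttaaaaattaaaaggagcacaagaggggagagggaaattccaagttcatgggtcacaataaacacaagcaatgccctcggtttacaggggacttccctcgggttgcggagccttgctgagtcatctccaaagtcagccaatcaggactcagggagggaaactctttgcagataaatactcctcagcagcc
Gbp2: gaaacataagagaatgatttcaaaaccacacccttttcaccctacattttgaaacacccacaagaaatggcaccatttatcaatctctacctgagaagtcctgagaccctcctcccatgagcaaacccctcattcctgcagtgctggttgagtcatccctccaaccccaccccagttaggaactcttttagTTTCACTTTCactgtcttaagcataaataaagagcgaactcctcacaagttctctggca
Rsad2: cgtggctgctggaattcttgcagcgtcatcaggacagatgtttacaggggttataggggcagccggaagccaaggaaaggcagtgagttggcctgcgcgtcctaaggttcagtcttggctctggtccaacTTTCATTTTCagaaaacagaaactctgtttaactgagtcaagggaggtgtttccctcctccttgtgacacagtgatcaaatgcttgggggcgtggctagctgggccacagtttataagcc
The match began 213 bases before the start of Cxcl10, 59 bases before that of Gbp2 and 120 bases before that of Rsad2, and in Gbp2 and Rsad2 it was read on the opposite strand. Of all 32851 promoter windows of this length, 978 (2.98%) held a match. No match was found in the windows of Ccl3, Cx3cl1, Cx3cr1 and Cxcr4, which says only that these letters are not in them. The letters TTCNNNGAA of the gamma-activated site, found in 7.02% of all windows, were in none of the 5 member windows. The Gbp5 window, not shown, held 1 ISRE match and 2 matches of the gamma-activated site. For Ifi203, which was also higher in nuclei with Cxcl10, 1 RefSeq window had 1 ISRE match and another had 0.

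When Muller glia were clustered again on their own, a sub-cluster of 235 nuclei led by Iigp1, Rsad2, Ifi204 and Mlkl held 446 of the 636 Cxcl10 UMIs (70.1%) and 190 of the 308 Ccl2 UMIs (61.7%). It held 5.15% of the Cxcl16 UMIs, close to its 235 of 4759 nuclei. The sub-cluster made up 4.81%, 6.69% and 2.17% of Muller glia in saline replicates 1, 2 and 6 and 1.77%, 6.87% and 7.74% in IL-27 replicates 4, 5 and 10. These shares overlapped between the groups. The libraries with the fewest such nuclei, saline replicate 6 and IL-27 replicate 4, were also those with the lowest Cxcl10 in Muller glia as a whole. The 2 values are not independent, since the sub-cluster held 70.1% of the Cxcl10 UMIs. The other sub-clusters also differed between libraries, above all 1 led by Syt10 and Adamts17 that held 293, 134 and 371 nuclei of the saline libraries and 271, 35 and 8 of the IL-27 libraries and had 1.41 CPM of Cxcl10. Outside the sub-cluster led by Iigp1, Cxcl10 was at 3.60, 8.41 and 4.82 CPM with saline and 4.13, 14.6 and 21.9 CPM with IL-27.

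**Figure D3:**
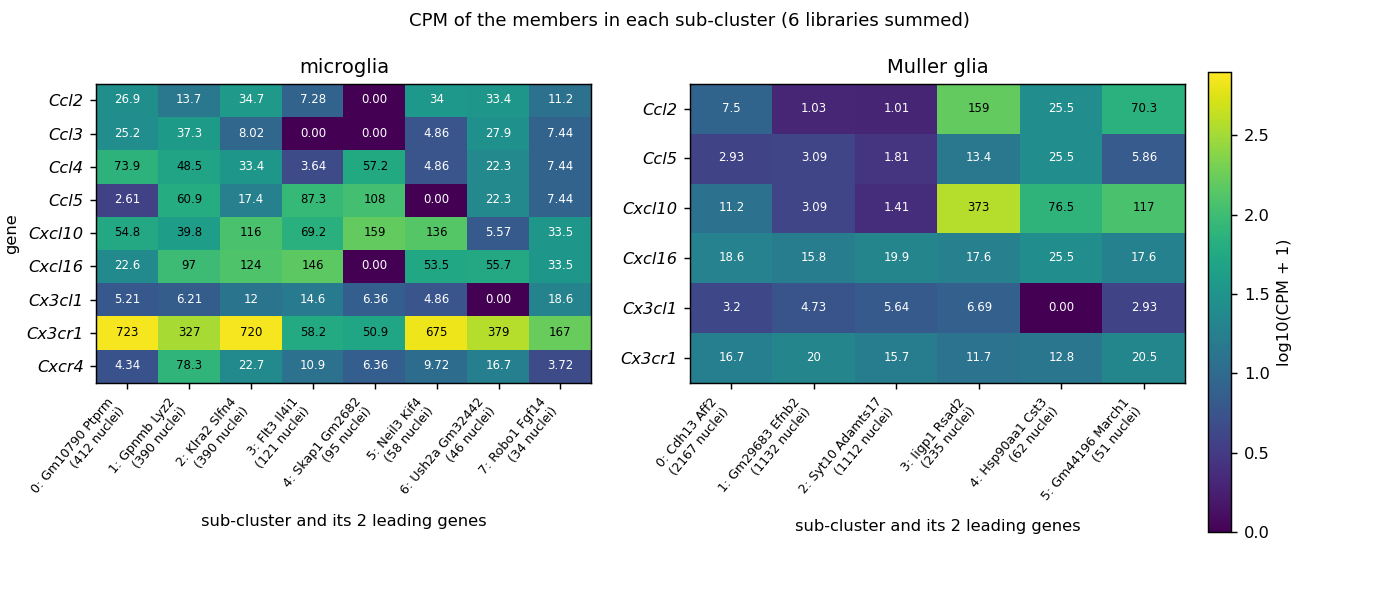
CPM of the members in sub-clusters of microglia (left) and Muller glia (right), 6 libraries summed, each column labelled with its 2 leading genes and number of nuclei and colour on a log10(CPM + 1) scale. In Muller glia Cxcl10 (373) and Ccl2 (159) peak in the sub-cluster led by Iigp1 and Rsad2, and in microglia Cxcr4 (78.3) peaks in the one led by Gpnmb and Lyz2.

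Cxcl10 was also present outside Muller glia. In microglia the libraries had 49.2, 72.1 and 15.1 CPM with saline and 67.4, 83.8 and 129.6 CPM with IL-27, so that saline replicate 2 overlapped the IL-27 range. Without the sub-clusters led by lymphocyte, MHC class II, rod and neuronal genes these were 57.8, 84.5 and 15.5 CPM with saline and 60.8, 74.8 and 156.0 CPM with IL-27, and still overlapped. Here too a minority held the molecules, with 18 nuclei carrying 68.2% of 264 UMIs. Microglia with Cxcl10 had 844 CPM of Rsad2 against 115 CPM in the others, 258 against 17.1 CPM of Gbp5, 240 against 26.5 CPM of Acod1, the itaconate-producing enzyme of activated macrophages, and 87.9 against 5.80 CPM of the cytokine gene Tnf. Their interferon-response sum was 5659 against 2222 CPM. Markers of T or NK cells were also higher in them, 486 against 205 CPM. Rods had a mean of 17.6 CPM, but the 13 rod nuclei with 5 or more Cxcl10 UMIs had rod markers at 1358 CPM against 9244 CPM in rod nuclei without Cxcl10, and interferon-response genes at 6789 against 469 CPM. These 13 nuclei held 35.3% of the Cxcl10 UMIs of the rod class, and their markers go against the name of the class.

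In endothelial nuclei Cxcl10 had few UMIs and a wide gap between groups. The libraries had 138, 114.5 and 84.6 CPM with saline and 8.80, 12.9 and 20.0 CPM with IL-27, and the groups did not overlap. This rests on 38 UMIs in 11 of 237 nuclei, of which 3 nuclei, 1 in each saline library, held 29. The gene was under the count filter there and has no test in the main fit. Without the filter edgeR gave a log2 fold change of -2.83 with a Benjamini-Hochberg adjusted p of 0.00925, in a fit that called 0.195% of 16433 genes. Astrocytes had 42 UMIs of Cxcl10 in 11 of 294 nuclei, with 118 CPM in saline replicate 2, 110 CPM in IL-27 replicate 5 and 0 to 22.1 CPM in the other 4 libraries.

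Ccl2, the monocyte attractant, was led by microglia and Muller glia, which did not differ beyond their spread. In microglia it was at 15.5, 30.6 and 25.9 CPM with saline and 4.70, 19.2 and 55.6 CPM with IL-27. In Muller glia it was at 12.4, 7.31 and 12.4 CPM with saline and 1.73, 23.5 and 27.4 CPM with IL-27. In both cell types IL-27 replicate 4 was the lowest and IL-27 replicate 10 the highest, on either side of the saline libraries. A UMI was seen in 3.82% of microglial and 2.06% of Muller glia nuclei, against 0.664% of AC nuclei, and after thinning in 1.77%, 0.867% and 0.0652%. The Ccl2 gene (chr11:82035571-82037453, plus strand, GRCm38) lies wholly inside Gm17268 on the opposite strand. Gm17268 was seen in 49 of 98 Muller glia nuclei with Ccl2 and 26 of 4661 without. The strand setting of the counting is not given in the sources used here, so counts of this pair are uncertain. Ccl7, a neighbour of Ccl2 on the same strand and likewise a ligand of Ccr2, had 70.6 CPM in Muller glia nuclei with Ccl2 and 0.548 CPM in the rest.

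Ccl3 and Ccl4, neighbouring genes on chromosome 11, were microglial. Ccl3 was at 12.7, 9.01 and 30.2 CPM with saline and 9.398, 20.2 and 44.0 CPM with IL-27. Ccl4 was at 43.6, 41.5 and 17.2 CPM with saline and 14.1, 54.5 and 94.9 CPM with IL-27. The groups overlapped for both genes, and saline replicate 6 was high in Ccl3 and low in Ccl4. Ccl4 was under 2 CPM on average in the 10 other cell types, and Ccl3 was under 1 CPM in all of them but pericytes (2.41 CPM, from 1 UMI). Ccl3 had no UMI in 237 endothelial nuclei, which by a limit of 3 counts allows a share of nuclei with a UMI of up to 1.27%, and does not limit the share that express the gene. The 2 genes were found together in 14 microglial nuclei, 30.4% of those with Ccl3 and 19.7% of those with Ccl4, while Ccl4 was in 3.8% of nuclei without Ccl3.

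The 103 microglia with Ccl3 or Ccl4 had higher levels of some immediate early genes. The sum of 17 immediate early genes was 699 CPM in them and 364 CPM in the other microglia. Within it Atf3, a stress-induced transcription factor, had 134 against 36.9 CPM, Tnf had 45.5 against 5.82 CPM and Nfkbiz had 131 against 47.7 CPM, while Ier2 was lower, 2.84 against 13.7 CPM, and Jund (34.1 against 35.5 CPM) and Btg2 (39.8 against 43.9 CPM) were close. Hmox1, the heme-degrading enzyme, had 148 against 41.6 CPM and the autophagy receptor gene Sqstm1 had 293 against 90.7 CPM. Their interferon-response sum was 2688 against 2345 CPM, and the 13 disease-associated microglia genes summed to 6587 against 5900 CPM. That sum hides a split, since Apoe, its most abundant gene, was lower (2583 against 3604 CPM) while Gpnmb (1228 against 748 CPM), Igf1 (531 against 180.0 CPM), Lgals3 (438 against 174 CPM) and Spp1 (401 against 186 CPM) were among the 10 that were higher. These nuclei were deeper, with a median of 2779 against 2056 UMIs.

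Ccl5, made by T cells, NK cells and activated macrophages, was found in several microglial sub-clusters. It was at 16.9, 14.4 and 30.2 CPM with saline and 7.83, 57.6 and 37.0 CPM with IL-27. Among microglia with Ccl5 the receptor Cx3cr1 was seen in 26.5%, against 52.5% of the others. T or NK cell markers summed to 810 CPM in nuclei with Ccl5 and 193 CPM in those without, and microglial markers to 2541 and 4091 CPM. The T or NK cell list as a whole ranged from 9.01 to 416.5 CPM over the saline libraries and from 64.2 to 384 CPM over the IL-27 libraries, with all 9 of its genes detected. The sub-cluster led by Gpnmb, Lyz2 and Spp1 held 49 of the 112 Ccl5 UMIs of microglia, at 60.9 CPM. A microglial sub-cluster of 95 nuclei led by Skap1, Ikzf3 and Lck, genes of lymphocytes, had 108 CPM of Ccl5 and 50.9 CPM of Cx3cr1, and it came largely from saline replicate 1 (35 nuclei) and IL-27 replicate 5 (42 nuclei). A sub-cluster of 121 nuclei led by Flt3, Il4i1 and genes of MHC class II had 87.3 CPM of Ccl5 and the highest Cxcl16 (146 CPM). Without the sub-clusters led by lymphocyte, MHC class II, rod and neuronal genes, Ccl5 was at 7.71, 9.39 and 12.9 CPM with saline and 1.96, 57.1 and 27 CPM with IL-27.

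Cxcr4 went with a microglial state. It was at 23.9, 12.6 and 12.9 CPM with saline and 17.2, 44.4 and 23.2 CPM with IL-27 in microglia, so that saline replicate 1 overlapped the IL-27 libraries. Of its 95 microglial UMIs, 63 were in the sub-cluster of 390 nuclei led by Gpnmb, Lyz2, Fabp5, Lgals3 and Spp1, genes of disease-associated microglia, where its level was 78.3 CPM. In the sub-clusters led by Npnt and Plxdc2 and by Klra2 and Ccr2 it was 4.35 and 22.7 CPM. The 13 disease-associated genes measured summed to 10450.0 CPM in microglia with Cxcr4 and 5689 CPM in those without. Cx3cr1 ran the other way over these sub-clusters, with 723 CPM in the one led by Npnt, 720 CPM in the one led by Klra2 and 327 CPM in the one led by Gpnmb. Astrocytes had 15.3 ± 10.3 CPM of Cxcr4 (SD, n = 6), from 19 UMIs in 294 nuclei, which did not differ from microglia beyond the spread.

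No member passed the test for a difference between IL-27 and saline in any cell type. The comparison asks whether a single IL-27 injection shifted chemokine transcripts by day 2 after it. With edgeR's quasi-likelihood test on summed counts and Benjamini-Hochberg adjustment at 0.05 over all genes of a cell type, 0 of 8 members tested were called in microglia and 0 of 6 in Muller glia. The fits called 0% of 9067 genes in microglia and 0.0366% of 13664 in Muller glia. In endothelial nuclei, astrocytes and pericytes no member had enough counts to be tested. In rods 0 of 6 were called (0.00738% of all genes), in AC 0 of 6 (0.00625%), in BC 0 of 6 (0%), in RGC 0 of 2 (0%), and in cones and HC 0 of 1 each (0% and 0%). DESeq2 also called no member in any of these. At an unadjusted p under 0.05 edgeR had 1 of 8 members in microglia (Cxcl10) and 1 of 6 in Muller glia (Ccl5), beside 3.08% and 4.9% of all genes.

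**Figure D4:**
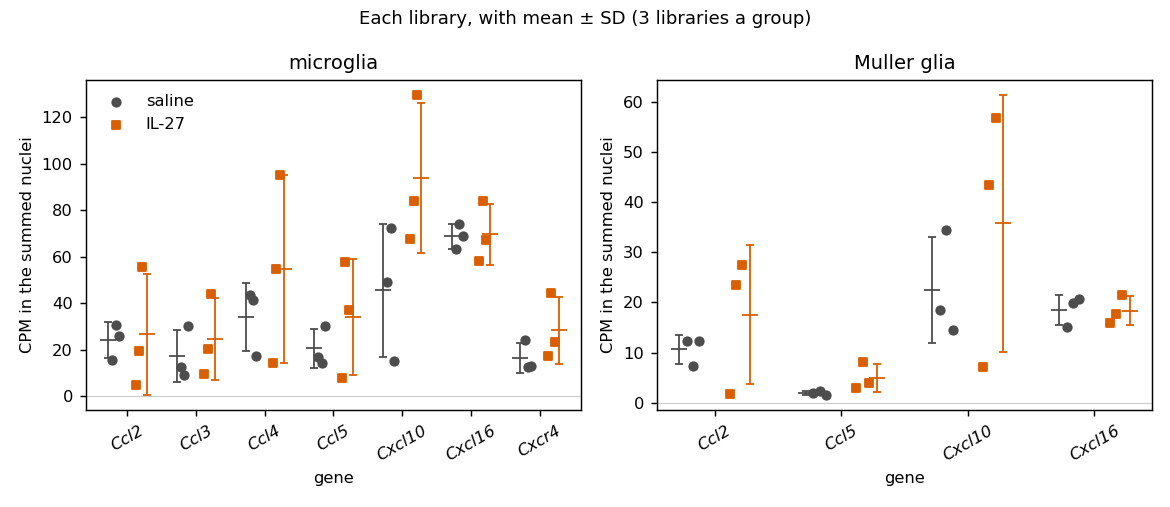
CPM of members in microglia (left) and Muller glia (right) for each of the 3 saline (circles) and 3 IL-27 (squares) libraries, with the group mean and SD as bars beside the points. The groups overlap for every gene drawn except Ccl5 in Muller glia, where saline lies between 1.47 and 2.27 CPM and IL-27 between 2.89 and 8.11 CPM.

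The values nearest to a difference were those of Cxcl10 and Ccl5. In microglia Cxcl10 had a log2 fold change of 0.96 ± 0.37 (SE) with an edgeR adjusted p of 1.0, and leaving out each library in turn gave 0.60 to 1.42. In Muller glia Ccl5 was at 1.92, 2.27 and 1.47 CPM with saline and 2.89, 8.11 and 3.96 CPM with IL-27. The groups did not overlap, but this rests on 76 UMIs, with a log2 fold change of 1.40 ± 0.44 (SE) and an edgeR adjusted p of 0.933. The 2 nuclei with 5 UMIs each, both in IL-27 replicate 5, held 10 of those UMIs. The microglial marker sum in Muller glia was also separate between the groups, at 196 to 214 CPM with saline and 214.3 to 248 CPM with IL-27, and its part in the Ccl5 value was not tested.

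Among genes that could be tested, members whose groups did not overlap were 0 of 8 members in microglia (8.01% of all genes tested), 1 of 6 in Muller glia (10.3%), 0 of 6 in rods (8.01%), 1 of 6 in BC (8.76%; Ccl5, 2.53 to 3.18 CPM with saline and 3.25 to 4.26 with IL-27), 1 of 6 in AC (8.51%; Cxcl16, 2.10 to 2.18 and 1.22 to 1.65 CPM) and 1 of 2 in RGC (9.15%; Cx3cr1, 18.3 to 20.6 and 12.7 to 17.7 CPM). These shares rest on few members and are read no further against those of all genes. Cxcl10 in endothelial nuclei, untested and given above, also had groups that did not overlap. Ccl5 was the higher with IL-27 in Muller glia and BC, and Cxcl16 and Cx3cr1 were the lower in AC and RGC.

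By sign, most fold changes were above 0, though none passed the test. Of 8 members tested in microglia 7 had a log2 fold change above 0, with a median of 0.51 beside -0.0021 over all genes tested. In Muller glia 4 of 6 were above 0, with a median of 0.36 beside 0.0019. Rods and BC each had 5 of 6 above 0 and AC had 4 of 6, while RGC had 0 of 2 and cones and HC 0 of 1 each. The members are not independent of each other, since in microglia Ccl2, Ccl3, Ccl4 and Cxcl10 were each highest in IL-27 replicate 10. In microglia Cxcr4 had 0.80 ± 0.42, Ccl5 0.84 ± 0.53, Ccl4 0.56 ± 0.49, Ccl3 0.45 ± 0.54, Cxcl16 0.04 ± 0.21, Ccl2 0.00 ± 0.68 and Cx3cr1 -0.07 ± 0.16 (log2 fold change ± SE). The standard errors show how much the genes differ in what could be seen: for Cx3cr1 and Cxcl16 the value was close to 0 with a small error, while for Ccl2, Ccl3 and Ccl5 the error was 0.53 log2 units or more. In Muller glia Cxcl10 had 0.65 ± 0.50 and Ccl2 0.70 ± 0.55, and Cxcl16 had -0.01 ± 0.18. For Cx3cl1 the values were -0.18 ± 0.15 in RGC and 0.01 ± 0.10 in AC.

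**Figure D5:**
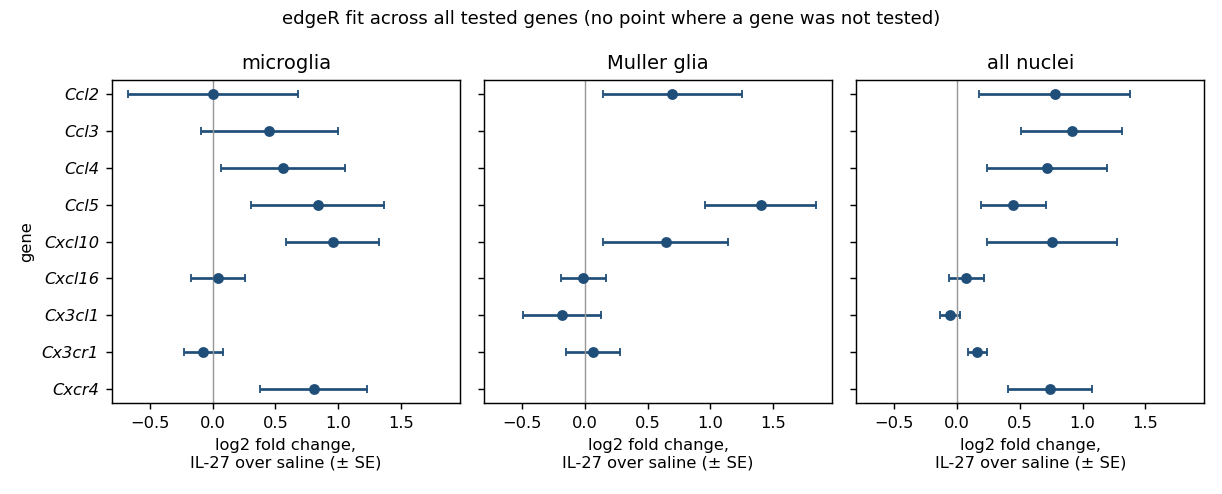
Log2 fold change of each member, IL-27 over saline, with its standard error, from the edgeR fits in microglia, Muller glia and all nuclei, where a missing point is a gene under the count filter. Cx3cr1, Cxcl16 and Cx3cl1 have the smallest errors, and no member passed the test in the 3 fits.

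The call depended on the filter on low counts for 3 values. Without it edgeR called Ccl2 in rods (log2 fold change 1.32, adjusted p = 0.00283, beside 0.149% of all genes called) and Cxcl10 in Muller glia (0.63, adjusted p = 0.0351, beside 0.49%), besides Cxcl10 in endothelial nuclei. With the filter the Ccl2 value in rods was the same 1.32 with an SE of 0.62 and an adjusted p of 1.0. Without the filter the SE of that value was 0.28. The Cxcl10 value in Muller glia had an SE of 0.50 with the filter and 0.17 without it. Cxcl10 in Muller glia was at 18.6, 34.5 and 14.4 CPM with saline and 7.22, 43.4 and 56.7 CPM with IL-27, and the groups overlapped. Of 197 Ccl2 UMIs in rods 115 came from IL-27 replicate 10, and without that library the log2 fold change was 0.18. The 7 rod nuclei with 5 or more Ccl2 UMIs had Muller glia markers at 5154 CPM and rod markers at 557 CPM, against 1665 and 9245 CPM in rod nuclei without Ccl2.

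Shares of positive nuclei were compared over libraries. In the cell type with the highest level of each member, the exact two-sided permutation test over 3 against 3 libraries, which cannot go below p = 0.1, gave p = 0.2 for Cxcr4 (3.70% ± 0.784 of microglia with saline and 6.29% ± 2.43 with IL-27), so no share could have passed 0.05. Without doublet removal the Cxcr4 shares did not overlap (2.87% to 3.92% with saline and 4.0% to 8.4% with IL-27) and the exact permutation p was 0.1, the smallest possible. How often such shares are separate over all genes was not computed. In the main sums IL-27 replicate 5 held 44 of the 95 microglial Cxcr4 UMIs. That library also gave 138 of the 390 nuclei of the sub-cluster led by Gpnmb. The other 8 members gave exact permutation p from 0.4 to 1.0, and adjusted over these 9 shares and the microglial share every value was 1.0. Cx3cr1 was in 54.4% ± 7.25 of microglia with saline and 50.5% ± 5.16 with IL-27 (SD, n = 3). Ccl2 was in 4.24% ± 0.991 and 4.27% ± 3.89, equal means with a wider spread in the IL-27 libraries. The direction for Cx3cr1 depended on the nuclei taken as microglia. By level, all microglia had means of 523 CPM with saline and 501 CPM with IL-27. Without the sub-clusters led by lymphocyte, MHC class II, rod and neuronal genes, mean Cx3cr1 was 607 CPM with saline and 624 CPM with IL-27. The groups overlapped in both.

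Over all nuclei together 0 of 9 members were called by edgeR (0% of 20359 genes), 0 by DESeq2, and 0 had an unadjusted p under 0.05, beside 2.82% of all genes. In such sums more cells of a type and more RNA per cell cannot be told apart. Microglia were 3.11%, 2.50% and 2.28% of nuclei with saline and 3.03%, 5.03% and 2.004% with IL-27 (exact permutation p = 0.7). The groups did not overlap for 2 of 9 members, beside 7.57% of all genes: Cx3cr1 (24.2 to 27.5 CPM with saline, 28.7 to 29.9 with IL-27) and Cxcr4 (0.699 to 0.921 and 0.929 to 2.11 CPM). Cxcr4 was highest in IL-27 replicate 5, the library with the largest share of microglia. In microglia alone neither gene was separate between the groups.

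The effect of IL-27 was not shown to differ between microglia and Muller glia for any member. A joint fit with the library as a block tested the difference of the log2 fold changes, and edgeR called 0 of 9 members (0.007% of 14282 genes) with 0 at an unadjusted p under 0.05, beside 4.25% of all genes. The difference, microglia minus Muller glia, was 0.50 ± 0.42 for Cxcl10, -0.68 ± 0.49 for Ccl2 and -0.62 ± 0.56 for Ccl5, each with an adjusted p of 1.0.

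Of 54 other genes of the chemokine pathway 50 had a row in the matrices. None was called in any comparison by edgeR or DESeq2, over 11 tested in microglia, 11 in Muller glia, 16 in AC and 28 over all nuclei. At an unadjusted p under 0.05 edgeR had 0 of 11 in microglia, Cxcl14 in Muller glia (log2 fold change -0.77 ± 0.28, adjusted p = 0.949), and Ccl1 and Ackr3 over all nuclei (2.31 ± 0.43 on 39 UMIs, and -0.98 ± 0.30, adjusted p = 1.0 for each). The log2 fold changes of the 28 genes over all nuclei lay between these values, with a median of 0.082. In the joint fit Ackr4 (-1.11 ± 0.42) was at an unadjusted p under 0.05 with an adjusted p of 1.0. The median log2 fold change was -0.079 over the 11 in microglia and 0.15 over the 11 in Muller glia.

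Several receptors for CC chemokines were highest in microglia. Ccr2, the receptor of Ccl2, was at 247 ± 58.4 CPM there with a log2 fold change of 0.24 ± 0.22. Ccr1, a receptor of Ccl3 and Ccl5, was at 25.4 ± 7.06 CPM with -0.22 ± 0.36 (SD, n = 6 for the levels and SE for the log2 fold changes). Ccr2 was in 24.4% of microglia. Ccr7 (14.98 CPM), Cxcr5 (8.50 CPM) and the ligands Ccl12 (52.8 CPM), Ccl6 (9.81 CPM), Ccl7 (2.84 CPM) and Cxcl13 (2.09 CPM) were also highest in microglia. Some of these places rest on few UMIs. Cxcl13 had 6 of its 229 UMIs in microglia (SD 2.31 CPM) and Ccl7 had 10 of 116 (SD 1.95 CPM). Cxcr3, the receptor of Cxcl10, had 16 UMIs in all, 11 of them in microglia. Cxcr6, the receptor of Cxcl16, was highest in rods at 55.4 ± 8.99 CPM. For the pathway genes of this and the next paragraph, overlapping genes were not looked up and the part of RNA from broken cells was not tested. Levels such as those of Cxcr6 and Ccr9 in rods and Ackr1 in BC are uncertain to that extent.

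Other pathway genes were highest in glia, neurons or the vessel wall. Cxcl12, the ligand of Cxcr4, was highest in astrocytes at 280 ± 76.0 CPM, where its log2 fold change was 0.12 ± 0.25. The protease gene Adam10 was highest in endothelial nuclei (508 ± 139 CPM) and Adam17 in microglia (228 ± 27.6 CPM). The atypical receptors, which bind chemokines without the usual signalling, had Ackr1 at 127 ± 13.3 CPM in BC, Ackr4 at 44.0 ± 12.5 CPM in astrocytes and Ackr3 at 68.1 ± 36.7 CPM in pericytes. Ccl25 was at 86.1 ± 11.3 CPM in HC and its receptor Ccr9 at 161 ± 34.6 CPM in rods. Cxcl14 was highest in AC (37.6 CPM), Cxcl17 (29.1 CPM), Ccl28 (3.95 CPM) and Ccr10 (1.05 CPM) in RGC, Ccl9 in cones (8.95 CPM) and Cxcl1 in rods (2.04 CPM). Cxcl1 had 49 UMIs in rods, with an SD of 2.21 CPM and none in saline replicate 2 and IL-27 replicate 4. Ccr10 had 22 UMIs in RGC. The remaining named genes rested on few nuclei where they were highest: Ccrl2 and Cxcl2 in pericytes with 4 and 7 UMIs, and Ccl17 and Cxcl9 in endothelial nuclei with 1 and 3 UMIs. Ccl20, Ccl24, Cxcl15 and Ppbp had no UMI.

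Lists of genes that went with the members in single nuclei had no called gene. In microglia none of 15 interferon-response genes, 12 disease-associated microglia genes and 8 immediate early genes tested was called by edgeR, with median log2 fold changes of 0.058, 0.0015 and -0.093 and none at an unadjusted p under 0.05. By level the leading genes of these lists in microglia included Stat2 and Bst2, Apoe, Gpnmb and Cd9, and Nfkbiz, Btg2 and Atf3. In Muller glia 0 of 16 interferon-response genes were called by edgeR and 0 had an unadjusted p under 0.05. All 16 had a log2 fold change above 0, with a median of 0.32 beside 0.0019 over all genes tested. These genes are not independent of each other, since all 16 were higher in the Muller glia nuclei with Cxcl10. Their sum in Muller glia was 1561, 1508 and 847 CPM with saline and 1036, 1811 and 2204 CPM with IL-27, which overlapped, and it was lowest in the same 2 libraries as Cxcl10.

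The genes whose mean levels over the 11 cell types followed a member most closely are given as a description, by Pearson's r of log2(CPM + 1) among 15132 genes. The cell types share libraries and depth. For Cx3cr1 they were Adgre1 (r = 0.993) and Fcgr2b, for Ccl4 Rac2 (0.996), Itgam and Ccr2, and for Ccl3 Acod1 (0.994), Bcl2a1d and Gm26714. For Cxcl10 they were Tapbp (0.985), Mcee and Cd82, for Cxcl16 Fnip1 (0.953), Kif11 and Zmynd15, and for Cx3cl1 Cpne6 (0.956), Ntrk3 and Fbxo21. For Ccl2 they were Arf4 (0.955), Scfd1 and Cd63, for Ccl5 Zfp90 (0.976), Sirpa and Pip4p1, and for Cxcr4 Zc3h7a (0.962), Tuba1c and Hfe.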

How the data were processed

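Single-nucleus RNA sequencing (10x 3′ chemistry) was run on 6 libraries of frozen rd10 retina. The deposited values are raw UMI counts per gene and barcode, made by the authors with Cell Ranger (9.0.1 in the submitters' processing notes, which also name Seurat 5.2.1, and 8.0.1 in the matrix headers). The genome build of their reference is not given in the sources used here, and positions of genes were taken from GENCODE M21 (GRCm38).

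From these counts, a barcode was kept when it had 200 genes or more, over 500 UMIs and a mitochondrial share below 5%. Scrublet, set to a doublet rate of 8%, marked the doublets to discard, and nuclei were clustered (scanpy 1.11.5, 2000 variable genes, 25 components, Louvain resolution 0.25) and named from marker lists. Depth outliers (log2 total more than 2 MAD from its median, so outside 604.6 to 19605.4 UMIs) were left out, which left 51293 nuclei in the sums. Counts were summed per library and cell type with at least 10 nuclei in every library. IL-27 was compared with saline by edgeR 4.0.16 (quasi-likelihood test, low-count filter at 10, TMM scaling, Benjamini-Hochberg adjustment over all genes, threshold 0.05) and, as an alternative, by DESeq2 1.42.0, the tool the study used for sums per sample and cell type. On data simulated with 200 genes changed by 1.5 log2 units, edgeR recovered 76.5% of them in microglia and 88.0% in Muller glia. It made 17 and 11 false calls. The changed genes were drawn from all genes tested, not at the counts of the members, and smaller changes were not simulated. Shares of nuclei were compared by exact permutation over libraries and repeated with nuclei thinned to 1000 UMIs. Other filters, scalings, cluster resolution 0.5 and leaving out each library were tried.

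The text names all 9 members, pathway genes with at least 50 UMIs or a call, examples of 3 gene lists by level in microglia, and the 3 genes most like each member. Genes that lead sub-clusters or nuclei with a member, and pathway genes at an unadjusted p under 0.05, were named after their values were seen. The members and lists were chosen with earlier results of these data known. Some genes that these rules would name are not reported here.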

Additional observations from a re-analysis of the deposited data

How the results depend on the processing

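Of 215 alternative values for 35 results, other than those that leave out a library, 204 kept their direction and their side of the threshold. Without the filter on low counts 3 members were called over the cell types instead of 0: Ccl2 in rods (1.32), Cxcl10 in Muller glia (0.63) and Cxcl10 in endothelial nuclei (-2.83, all log2 fold changes). The sign turned for log2 fold changes close to 0: Cx3cr1 in microglia (0.066) and Cx3cl1 in AC (-0.024) without doublet removal, and Cxcl16 in Muller glia (0.11) when the saline-enriched cluster was added, an alternative chosen after seeing the data. It also turned for differences of shares, in percentage points: Ccl2 (-0.0062), Ccl4 (0.325) and Ccl5 (-0.0715) without doublet removal, and Ccl3 (-0.0258) and Ccl4 (0.314) after thinning. The cause was not tested. The planned exclusion of the saline-enriched cluster from Muller glia left the values as they were, since the markers already placed it outside.

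Leaving out each library in turn left 0 members called in any cell type, over all nuclei and in the joint fit, and 0 other pathway genes. In microglia the log2 fold changes ranged as follows: Ccl2 -0.84 to 0.49, Ccl3 -0.083 to 1.04, Ccl4 0.07 to 1.01, Ccl5 0.03 to 1.29, Cxcl10 0.60 to 1.42, Cxcl16 -0.15 to 0.16, Cx3cr1 -0.14 to 0.059, Cxcr4 0.21 to 1.21. In Muller glia the log2 fold changes ranged as follows: Cxcl10 0.21 to 1.13, Ccl2 0.30 to 1.24, Ccl5 1.27 to 1.68, Cxcl16 -0.15 to 0.074. In rods the log2 fold changes ranged as follows: Ccl2 0.18 to 1.84, Cxcl10 -0.084 to 1.07. In RGC the log2 fold changes ranged as follows: Cx3cl1 -0.29 to -0.07. In AC the log2 fold changes ranged as follows: Cx3cl1 -0.056 to 0.062. In all nuclei the log2 fold changes ranged as follows: Cx3cr1 0.12 to 0.19, Cxcr4 0.29 to 0.97, Cxcl10 0.29 to 1.22, Ccl2 0.05 to 1.27, Ccl3 0.65 to 1.21. Differences of shares in percentage points ranged as follows: Ccl2 -2.14 to 1.603, Ccl3 -0.461 to 1.22, Ccl4 -0.883 to 0.322, Ccl5 -1.23 to 1.61, Cxcl10 0.153 to 2.27, Cxcl16 -2.34 to 0.294, Cx3cl1 -5.44 to -1.41, Cx3cr1 -6.21 to 0.293, Cxcr4 1.26 to 3.65. The difference in the microglial share ranged from -0.111 to 1.40. Of 209 such values 27 changed sign. The 209 include the counts of genes called, 6 for each such result, which were all 0 and could not change sign.

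No paired analysis was possible because the saline and IL-27 libraries share no replicate number. Depth was low for several members: Ccl2, Ccl3, Ccl4, Ccl5 and Cxcr4 had 73 to 166 UMIs in microglia over 6 libraries.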

Other observations

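A microglial sub-cluster of 58 nuclei was led by Neil3, Kif4 and Top2a, genes of dividing cells, and it was present in every library with 11, 8 and 8 nuclei in saline replicates 1, 2 and 6 and 7, 11 and 13 nuclei in IL-27 replicates 4, 5 and 10. It had 675 CPM of Cx3cr1, 136 CPM of Cxcl10 and 34.0 CPM of Ccl2, and no UMI of Ccl5. A sub-cluster of 390 nuclei led by Klra2, Slfn4 and Ccr2 had 124 CPM of Cxcl16 and 116 CPM of Cxcl10. The highest Cxcl10 of the microglial sub-clusters, 159.0 CPM from 25 UMIs, was in the one led by Skap1, Ikzf3 and Lck, where 35 of 95 nuclei came from saline replicate 1 and 42 from IL-27 replicate 5. These values are sums over libraries and carry no test.

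In the ciliary epithelium-like cluster Cx3cr1 had a mean of 18.7 CPM and Cx3cl1 of 6.46 CPM over the 6 libraries, and Cxcl10, Ccl2 and Cxcl16 rested on 9, 9 and 19 UMIs. These means weigh each library equally, though IL-27 replicates 4 and 5 had 12 and 6 nuclei with 1 and 0 UMIs of Cx3cr1.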
